A study of Homo sapiens with 10 samples.

Results

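The SP transcription factors are zinc finger proteins that bind GC boxes, and their messenger RNA levels are described here in cells that received KLF11 or one of its mutants. The members are the 8 genes SP1 to SP8, each represented by the brightest of its transcript clusters, the sets of probes by which the array reads a gene. They are 8 of the 18377 genes for which the array held a cluster with 1 gene symbol, and each member had 1 cluster. The values of the members played no part in the choice, although results from these arrays were already known.

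Panc1, an epithelial line established from a human pancreatic carcinoma, was transduced for 48 h at a multiplicity of infection of 150. The 4 adenoviruses that encode epitope-tagged KLF11 carried the A347S mutant, the mutant deleted from amino acid 486 (Δ486), the EAPP mutant and wild type KLF11, and an empty Ad5CMV vector (EV) served as the control. A347S decouples KLF11 from WD40 proteins, Δ486 from HP1 and its histone methyltransferases, and EAPP from the Sin3 and histone deacetylase system. All cells, the controls included, therefore received adenovirus on top of their own KLF11. RNA was measured on 2 arrays per group, 10 in all. The extract protocol describes technical duplicates of RNA pooled from separate cultures, while the sample titles number them as biological replicates, so the errors and p-values below measure only the spread between arrays.

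The SP proteins share a row of C2H2 zinc fingers at their C-terminus and read the GC boxes found in many promoters that lack a TATA box. KLF proteins, KLF11 among them, have closely related fingers and can bind overlapping GC-rich sites. SP1 and SP3 are present in nearly all cells and act on a wide range of housekeeping, cell cycle and metabolic promoters. SP2 is bound at many promoters together with NF-Y, the factor that reads CCAAT boxes, and SP4 is best known from neurons. SP5 is a target of Wnt signalling, and SP6, SP7 and SP8 are known mainly from mice, where they act in tooth and skin, in bone and in the limb and forebrain.

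Promoter sequence was available from RefSeq (build GRCh38.p14) for 6 of the 8 members, SP1, SP2, SP3, SP4, SP5 and SP8. The GC box was searched as GGGCGG on both strands in the 250 bases before the most upstream start listed for each gene. For SP1 2 starts were listed and for SP3 3, and the windows before their other starts were not searched. Of 27305 promoters of the same length, 42.2% held at least 1 such match, 24.2% at least 2, 13.9% at least 3 and 7.75% at least 4. The genes whose levels fell in the cells, SP1 and SP4, are shown first, with matches to the GC box in capitals. SP1 lies on the plus strand and its window is chr12:53379926-53380175, with 4 matches. SP4 lies on the plus strand and its window is chr7:21427833-21428082, also with 4 matches.
SP1: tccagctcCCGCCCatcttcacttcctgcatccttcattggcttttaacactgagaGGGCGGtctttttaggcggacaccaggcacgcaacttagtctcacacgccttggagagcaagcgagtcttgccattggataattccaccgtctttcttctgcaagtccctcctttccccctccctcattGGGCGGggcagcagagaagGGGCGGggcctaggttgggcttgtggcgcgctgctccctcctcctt
SP4: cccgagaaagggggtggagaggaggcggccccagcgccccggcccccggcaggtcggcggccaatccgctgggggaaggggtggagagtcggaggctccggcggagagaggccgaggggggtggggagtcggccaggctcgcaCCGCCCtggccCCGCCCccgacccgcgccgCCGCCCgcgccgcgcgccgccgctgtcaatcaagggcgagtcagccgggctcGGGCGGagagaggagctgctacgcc
The SP1 matches began 242, 194, 65 and 46 bases before the start, and those of SP4 107, 96, 77 and 25 bases before it. SP3, on the minus strand at chr2:173965703-173965952, held 1 match, and SP5, on the plus strand at chr2:170715087-170715336, held 0. They are shown because SP3 was lower by less than the fold threshold and SP5 is a member that did not pass the test in any group.
SP3: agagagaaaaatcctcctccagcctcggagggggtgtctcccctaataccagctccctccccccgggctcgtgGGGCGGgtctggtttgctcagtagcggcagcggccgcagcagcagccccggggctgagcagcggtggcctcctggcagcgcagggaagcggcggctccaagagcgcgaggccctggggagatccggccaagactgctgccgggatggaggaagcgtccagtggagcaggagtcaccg
SP5: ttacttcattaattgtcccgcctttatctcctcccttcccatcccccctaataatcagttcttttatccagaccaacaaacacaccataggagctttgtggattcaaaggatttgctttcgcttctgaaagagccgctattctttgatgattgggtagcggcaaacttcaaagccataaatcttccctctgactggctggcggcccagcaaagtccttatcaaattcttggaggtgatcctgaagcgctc
SP2, on the plus strand at chr17:47895986-47896235, held 2 GC boxes and SP8, on the minus strand at chr7:20786887-20787136, held 3, of which 2 lay end to end. The SP2 window is shown with matches to CCAAT, on either strand, in capitals, since CCAAT boxes outnumber GC boxes in it.
SP2: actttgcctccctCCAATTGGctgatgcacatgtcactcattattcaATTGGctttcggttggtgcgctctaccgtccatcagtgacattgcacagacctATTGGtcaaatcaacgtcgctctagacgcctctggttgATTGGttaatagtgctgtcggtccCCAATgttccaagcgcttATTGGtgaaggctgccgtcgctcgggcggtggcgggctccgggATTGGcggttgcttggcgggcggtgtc
It held 8 matches to CCAAT, of which 1 pair overlaps by shared bases, against 3 for SP1, 1 each for SP4, SP5 and SP8 and 0 for SP3. At least 4 such matches were found in 0.916% of the 27305 promoters, and at least 1 in 33.0%. A match describes the letters of the window and is no measure of binding.

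The transduced gene, KLF11, gave 8.85 and 8.88 on the A347S arrays, 8.72 and 8.83 on the Δ486 arrays, 8.78 and 8.68 on the EAPP arrays and 8.82 and 8.85 on the wild type KLF11 arrays, against 8.37 and 7.75 with empty vector, in log2 expression after Robust Multiarray Analysis. Each construct array lay above both empty vector arrays, which differed from each other more than any other pair. The change was 0.81 for A347S, 0.71 for Δ486, 0.67 for EAPP and 0.77 for wild type KLF11 (adjusted p = 0.00398, 0.0106, 0.282 and 0.00938). Against the first empty vector array alone these changes were 0.50, 0.40, 0.36 and 0.46 in the same order. For EAPP against empty vector the unadjusted p from limma was 0.00204. Against wild type KLF11 the EAPP level differed by -0.11 (limma's adjusted p = 0.742). No source used here states whether this cluster detects the transduced sequence. Of the epithelial markers listed for Panc1, 7 of 7 were measured, and KRT8 and KRT18, keratins of simple epithelium, read at least 12.18 on every array, while the epithelial cadherin CDH1 read at most 5.12. Array medians spanned 6.81 to 6.87, and replicate arrays correlated over all clusters at 0.996 to 0.997.

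SP1, SP3 and SP4 were lower with A347S, Δ486 and wild type KLF11 than with empty vector, and the values with EAPP lay between. A gene is said to fall or rise where limma's Benjamini-Hochberg adjusted p over all 20961 clusters with a symbol lay below 0.05 and the groups differed by at least 1.5-fold, which is 0.585 on the log2 scale. By this rule SP1 fell with A347S, Δ486 and wild type KLF11, SP4 fell with A347S and wild type KLF11, and 0 of the 8 members rose. All comparisons with empty vector use the same 2 control arrays, so their values are not independent of each other.

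SP1, the founding member and a general activator, read 8.58 and 8.10 under A347S, 8.63 and 8.47 under Δ486, 9.18 and 9.13 under EAPP and 8.67 and 8.79 under wild type KLF11, against 9.52 and 9.40 under empty vector. The arrays of all 4 constructs lay below both empty vector arrays, and the EAPP arrays lay above every array of the other constructs. SP1 fell by 1.12 with A347S (standard error 0.14, 95% interval -1.43 to -0.81, adjusted p = 0.000324), which is 2.17-fold lower. It fell by 0.91 with Δ486 (interval -1.22 to -0.59, adjusted p = 0.00169) and by 0.73 with wild type KLF11 (interval -1.05 to -0.42, adjusted p = 0.00673). With EAPP the change was -0.31 (interval -0.62 to 0.01, adjusted p = 0.585), which did not pass the test. The fall with wild type KLF11 rests on single arrays for its call, since the adjusted p was 0.0559 without the first wild type array and 0.0525 without the first empty vector array. The A347S arrays differed by more than those of any other group for this gene, and the change was -0.88 without the second of them and -1.36 without the first, with an adjusted p of at most 0.0041 when any array was left out. For Δ486 that highest adjusted p was 0.0168.

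SP4, which is best known from neurons and was measured well within the range of these arrays, read 7.29 and 7.19 under A347S, 7.39 and 7.48 under Δ486, 7.69 and 7.82 under EAPP and 7.06 and 7.29 under wild type KLF11, against 7.93 and 7.92 under empty vector. Every construct array again lay below the empty vector arrays, and the wild type arrays were among the lowest. SP4 fell by 0.75 with wild type KLF11 (standard error 0.09, interval -0.96 to -0.54, adjusted p = 0.000969) and by 0.69 with A347S (interval -0.90 to -0.48, adjusted p = 0.000496). With Δ486 it was lower by 1.41-fold, at -0.49 (interval -0.70 to -0.28, adjusted p = 0.00457), which passes the p threshold and not the fold threshold. With EAPP it stood at -0.17 (interval -0.38 to 0.04, adjusted p = 0.659). When any array was left out, the adjusted p stayed at 0.0109 or below with wild type KLF11, at 0.00727 or below with A347S and at 0.0328 or below with Δ486.

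SP3, which has both activating and repressing forms and shares many sites with SP1, read 8.25 and 8.15 under A347S, 8.19 and 8.31 under Δ486, 8.42 and 8.47 under EAPP and 8.34 and 8.24 under wild type KLF11, against 8.68 and 8.51 under empty vector. Its order of groups was that of SP1, over a narrower span of 0.40 between group means against 1.12 for SP1. The changes were -0.40 with A347S (standard error 0.09, adjusted p = 0.00749), -0.34 with Δ486 (adjusted p = 0.02), -0.15 with EAPP (adjusted p = 0.689) and -0.31 with wild type KLF11 (adjusted p = 0.0405). The values with A347S, Δ486 and wild type KLF11 pass the p threshold and lie below the fold threshold. These passes depended on single arrays. With each array left out in turn, the adjusted p of SP3 passed in 8 of 10 fits for A347S, in 8 of 10 for Δ486 and in 2 of 10 for wild type KLF11, and reached 0.0718, 0.149 and 0.256. The A347S pass was lost without the second A347S array or the first empty vector array, and the Δ486 pass without the first Δ486 array or the first empty vector array.

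SP2, the member bound with NF-Y, read 6.40 and 6.31 under A347S, 6.58 and 6.58 under Δ486, 6.71 and 6.76 under EAPP and 6.38 and 6.59 under wild type KLF11, against 6.87 and 6.49 under empty vector. The empty vector arrays span most of these values, and both A347S arrays and the first wild type array lay below both of them. The changes were -0.32 with A347S (standard error 0.12, adjusted p = 0.0756), -0.10 with Δ486, 0.06 with EAPP and -0.19 with wild type KLF11, and none passed limma's test. The A347S change was -0.51 without the second empty vector array (adjusted p = 0.0118) and -0.13 without the first (adjusted p = 0.48), and 9 of the 10 fits with an array left out did not pass.

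**Figure D1:**
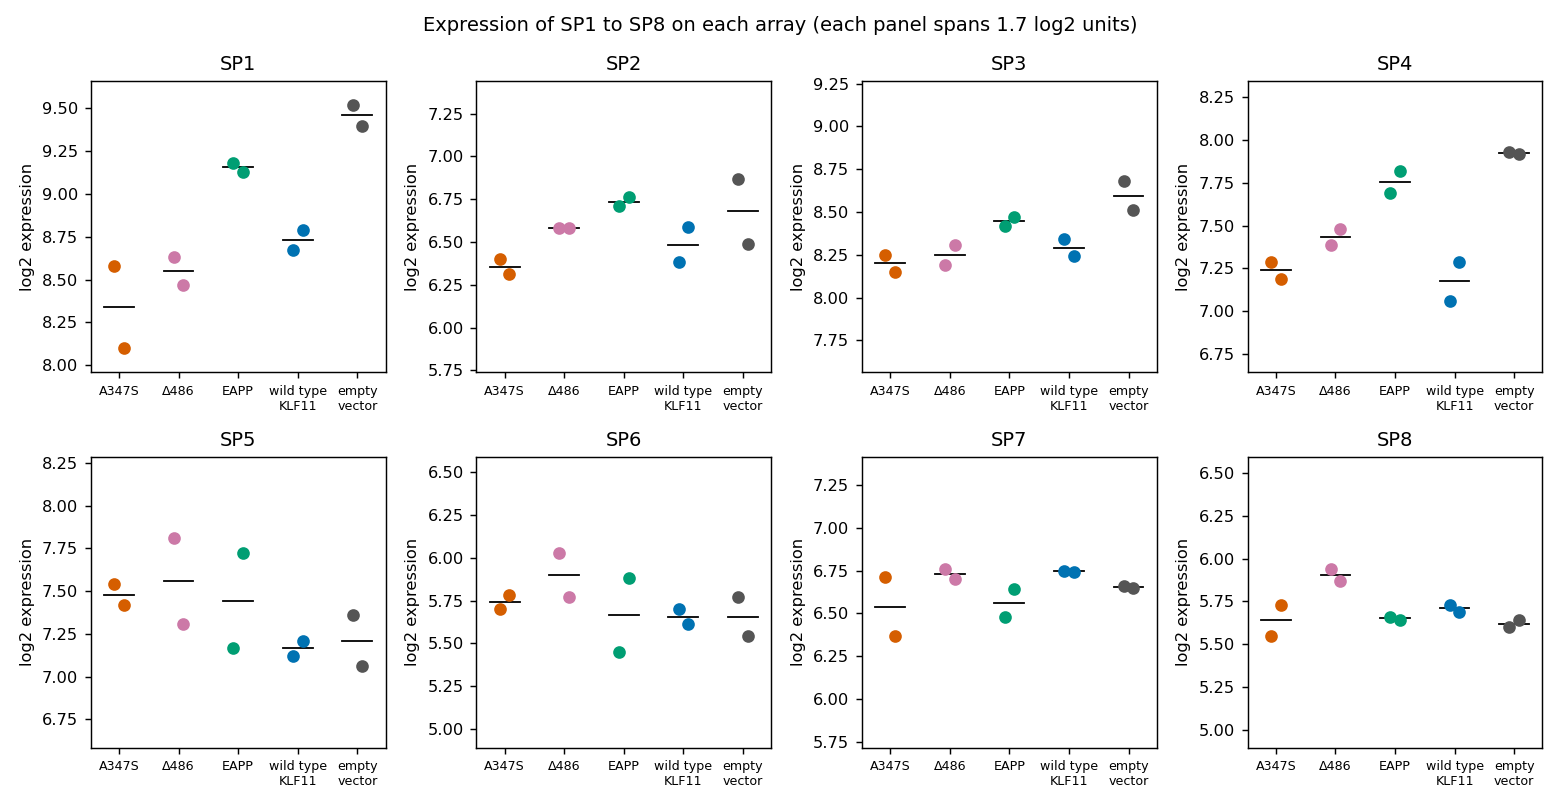
Log2 expression of each SP gene on each array, with the groups A347S, Δ486, EAPP, wild type KLF11 and empty vector from left to right. Points are single arrays (2 per group), black lines are group means and each panel spans the same 1.7 log2 units around its own centre. For SP1, SP3 and SP4 every construct array lies below both empty vector arrays, with the EAPP arrays closest to them.

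SP5 to SP8 are tissue-restricted factors, and none of them fell. SP6 and SP8 had means under 6, and SP7 read at most 6.76, below the array medians of 6.81 to 6.87. A gene read at a low level has little room to fall, so a fall of SP6, SP7 or SP8 could have gone unseen. SP5, the Wnt target, read 7.54 and 7.42 under A347S, 7.81 and 7.31 under Δ486, 7.17 and 7.72 under EAPP and 7.12 and 7.21 under wild type KLF11, against 7.36 and 7.06 under empty vector. The Δ486 and EAPP arrays each spread over most of the range, and the changes of 0.27 with A347S, 0.35 with Δ486, 0.24 with EAPP and -0.04 with wild type KLF11 had a standard error of 0.20. The interval for Δ486 ran from -0.09 to 0.79, so it includes both no change and a difference of over 1.5-fold.

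SP8, which patterns limb and forebrain in mice, read 5.55 and 5.73 under A347S, 5.94 and 5.87 under Δ486, 5.66 and 5.64 under EAPP and 5.73 and 5.69 under wild type KLF11, against 5.60 and 5.64 under empty vector. The Δ486 arrays were the highest, and their change of 0.29 (standard error 0.08, interval 0.11 to 0.47, adjusted p = 0.0268) passed the p threshold at 1.22-fold, below the fold threshold. The pass was lost without either Δ486 array or either empty vector array, where the adjusted p reached 0.132. SP6, a factor of tooth and skin in mice, read between 5.45 and 6.03 over the 10 arrays, with changes of 0.08, 0.24, 0.01 and 0.00 with A347S, Δ486, EAPP and wild type KLF11. SP7, the osteoblast factor osterix, read between 6.37 and 6.76, with changes of -0.12, 0.07, -0.10 and 0.09 in the same order. Neither gene passed the test in any group.

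Against empty vector, 2 of the 8 members fell with A347S, where 5.35% of all clusters fell and 3.63% rose. With Δ486 1 of 8 fell, where 3.23% of all clusters fell and 2.38% rose, and with wild type KLF11 2 of 8 fell, where 1.78% fell and 2.21% rose. With EAPP 0 of 8 passed, where 0.00477% of all clusters did (1 cluster), and 0 of 8 had an unadjusted p under 0.05 in limma's test, where 8.73% of all clusters had. At that unadjusted p, 4 of 8 members passed for A347S, 4 for Δ486 and 3 for wild type KLF11, beside 37.6%, 34.3% and 29.4% of all clusters in either direction. At the adjusted p alone, 3 of 8 were lower with A347S (16.9% of all clusters lower and 11.5% higher), 3 with Δ486 (13.3% and 9.07%) and 3 with wild type KLF11 (9.75% and 7.56%), and SP8 was the 1 member higher, with Δ486. The median change of SP1 to SP4 was -0.54 with A347S, -0.42 with Δ486, -0.16 with EAPP and -0.52 with wild type KLF11. The median of SP5 to SP8 was 0.05, 0.27, 0.02 and 0.04, beside 0.01, 0.02, 0 and -0.02 over all clusters, in the same order. The low levels of SP6, SP7 and SP8 limit the comparison of these medians.

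**Figure D2:**
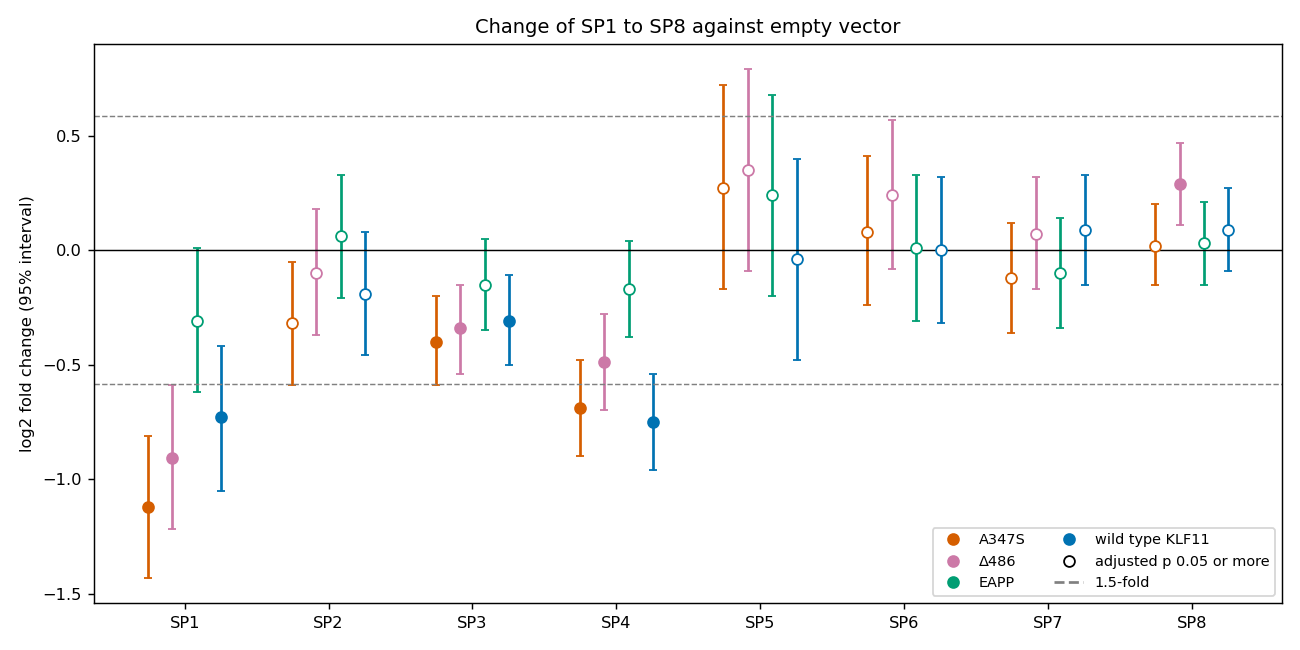
Log2 fold change of each SP gene against empty vector with A347S, Δ486, EAPP and wild type KLF11, with 95% intervals from limma. Filled points have an adjusted p under 0.05 and dashed lines mark 1.5-fold. SP1 lies at -1.12 with A347S and -0.31 with EAPP, and SP4 at -0.75 with wild type KLF11 and -0.17 with EAPP.

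SP1 was also set against SP3, its close relative, within each array. The difference SP1 minus SP3, in log2 units, was 0.33 and -0.05 under A347S, 0.44 and 0.16 under Δ486, 0.76 and 0.66 under EAPP and 0.33 and 0.55 under wild type KLF11, against 0.84 and 0.89 under empty vector. It was smaller on every array of the 4 constructs than on both empty vector arrays. On average it changed by -0.72 with A347S, -0.57 with Δ486, -0.16 with EAPP and -0.43 with wild type KLF11, and these changes were not tested. SP1 minus SP4 was 1.30 and 0.91 under A347S, 1.24 and 0.99 under Δ486, 1.49 and 1.31 under EAPP and 1.60 and 1.49 under wild type KLF11, against 1.59 and 1.48 under empty vector. Here the wild type and empty vector arrays overlap, with an average change of 0.02, beside -0.43 with A347S, -0.41 with Δ486 and -0.13 with EAPP. Only the changes in these differences are read, since the probes of different genes are not comparable in level.

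The constructs were also compared with each other. Between the mutants and wild type KLF11, 0 of the 8 members differed by both thresholds with A347S, Δ486 or EAPP. For A347S and Δ486 the share of all clusters called against wild type KLF11 was 0%, and it was also 0% between A347S and Δ486, where 0 of 8 members passed and 1, SP8 at -0.26, had an unadjusted p under 0.05 (adjusted p = 0.642), as had 7.43% of all clusters. At an unadjusted p under 0.05 limma gave 1 member of 8 for A347S, where it gave 14.4% of all clusters. This was SP1 at -0.39 (interval -0.70 to -0.07, adjusted p = 0.269), which stood at -0.63 without the first A347S array and -0.14 without the second. It gave 2 for Δ486, SP4 at 0.25 and SP8 at 0.20 (adjusted p = 0.422 and 0.439), where it gave 10.5% of all clusters, and 2 for EAPP, SP1 and SP4, where it gave 25.2%. Of all clusters, 0.763% rose with EAPP against wild type KLF11, and 4.89% were higher at the adjusted p alone.

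SP4 was higher with EAPP than with wild type KLF11 by 0.58, just short of 1.5-fold (interval 0.37 to 0.79, adjusted p = 0.00502). SP1 was higher by 0.43 (interval 0.11 to 0.74, adjusted p = 0.0868), which did not pass. SP4 passes both thresholds, as the 1 member called, without the first EAPP array or without the second wild type array, at up to 0.69. SP3 stood at 0.15 (interval -0.04 to 0.35) and SP2 at 0.25 (interval -0.02 to 0.52), so differences of these sizes were not detectable here.

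**Figure D3:**
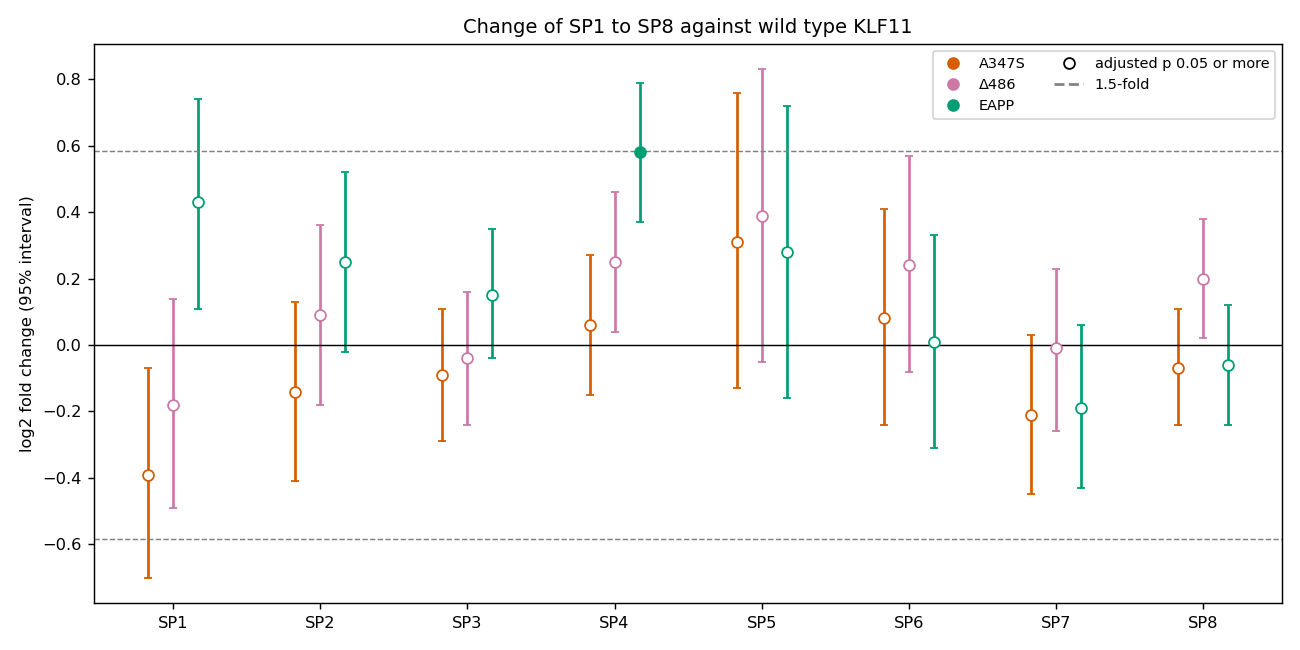
Log2 fold change of each SP gene with A347S, Δ486 and EAPP against wild type KLF11, with 95% intervals from limma. Filled points have an adjusted p under 0.05 and dashed lines mark 1.5-fold. SP4 with EAPP, at 0.58, is the 1 filled point.

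SP1 rose with EAPP relative to the other mutants. Against A347S it was higher by 0.81 (standard error 0.14, interval 0.50 to 1.13, adjusted p = 0.00269), where 2.94% of all clusters rose. SP4 at 0.52 and SP2 at 0.39 passed the p threshold alone (adjusted p = 0.00348 and 0.0447), where 13.6% of all clusters were higher by p alone. Without the second A347S array SP1 stood at 0.57, below the fold threshold, and the pass of SP2 held in 4 of the 10 fits with an array left out. Against Δ486, SP1 was higher by 0.60 (interval 0.29 to 0.92, adjusted p = 0.0188), where 1.36% of all clusters rose, and SP4 by 0.32 (adjusted p = 0.0465), where 8.29% were higher by p alone. Both rest on single arrays, since the adjusted p of SP1 was 0.103 without the second Δ486 array, 0.0871 without the first EAPP array and 0.0664 without the second, and that of SP4 passed in 2 of 10 such fits. After repeated quantile normalization or cyclic loess, 0 members were called against Δ486. At the unadjusted p alone, 4 of 8 members passed for EAPP against A347S and 3 against Δ486, beside 33.4% and 28% of all clusters. In rising order the SP1 group means were 8.34 with A347S, 8.55 with Δ486, 8.73 with wild type KLF11, 9.15 with EAPP and 9.46 with empty vector, and 0 of these 4 neighbouring pairs differed by limma's adjusted p. For SP4 the rising order was wild type KLF11, A347S, Δ486, EAPP and empty vector, and EAPP and Δ486 were the 1 neighbouring pair whose adjusted p passed.

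Among 27 measured cofactors and partners of the SP factors, of 29 listed, 3 fell with A347S, where 5.35% of all clusters fell, 1 with Δ486, where 3.23% fell, 0 with EAPP and 0 with wild type KLF11. By both thresholds 0 rose. By the adjusted p alone 8 were lower and 2 higher for A347S, 8 lower and 2 higher for Δ486, and 6 lower and 1 higher for wild type KLF11. By that rule 16.9% of all clusters were lower and 11.5% higher for A347S, and 13.3% and 9.07% for Δ486. For wild type KLF11 they were 9.75% and 7.56%. TBP, the TATA-binding protein, was higher by p alone at 0.50 for A347S (adjusted p = 0.000406), 0.43 for Δ486 and 0.40 for wild type KLF11. HDAC1, the histone deacetylase that binds SP1, read 11.61 and 11.54 under A347S, 11.74 and 11.63 under Δ486, 12.23 and 12.24 under EAPP and 11.78 and 11.79 under wild type KLF11, against 12.28 and 12.27 under empty vector. HDAC1 fell by 0.70 in the A347S group and by 0.59 in the Δ486 group. Its change was -0.04 for EAPP and -0.48 for wild type KLF11, too small for the fold rule. RELA, a subunit of NF-kappa B, fell by 0.60 and NFYB, a subunit of the CCAAT-binding factor NF-Y, fell by 0.67, both with A347S. RELA and NFYB stood at -0.51 and -0.57 with Δ486 and at -0.31 and -0.34 with wild type KLF11. These values passed the p threshold and not the fold threshold. The median of the list was -0.08 with A347S, -0.07 with Δ486, -0.06 with EAPP and -0.05 with wild type KLF11. After quantile normalization was repeated, 1 of the 27 fell with A347S and 0 with Δ486.

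Textbook SP1 target genes were a list drawn from general knowledge of GC box promoters. Like the other lists, it was written with earlier results of these arrays known. Its counts beside the shares of all clusters are therefore no independent test. Of the 30 genes listed, 27 were measured. Of these 6 fell with A347S, 4 with Δ486, 0 with EAPP and 2 with wild type KLF11, beside 5.35%, 3.23%, 0.00477% (either direction) and 1.78% of all clusters, and 0 rose. By the adjusted p alone 14 were lower and 1 higher for A347S, while 10 were lower and 2 higher for Δ486 and likewise for wild type KLF11. Of all clusters, 16.9% were lower and 11.5% higher by p alone for A347S. The shares were 13.3% and 9.07% for Δ486, and 9.75% and 7.56% for wild type KLF11. TGFBR1, the type I receptor for TGF-beta, read 6.99 and 6.82 under A347S, 7.33 and 7.23 under Δ486, 8.11 and 8.12 under EAPP and 7.43 and 7.47 under wild type KLF11, against 8.30 and 8.29 under empty vector. The receptor fell by 1.39 under A347S, by 1.01 under Δ486 and by 0.84 under wild type KLF11 (standard error 0.08), while its EAPP change was -0.18. FASN, the fatty acid synthase, changed by -1.02, -0.78 and -0.73 in the same order, all called, and by -0.13 with EAPP. ODC1, the first enzyme of polyamine synthesis, and MYC, a growth-promoting factor, were both called with A347S, at -0.88 and -0.80, and with Δ486, at -0.72 and -0.65. With wild type KLF11 ODC1 and MYC stood at -0.58 and -0.52, which passed the p threshold and not the fold threshold. The median of the list was -0.28 with A347S, -0.14 with Δ486, -0.05 with EAPP and -0.15 with wild type KLF11. Over 20 settings that kept both thresholds the number called was 6 to 7 with A347S, 3 to 5 with Δ486, 0 with EAPP and 2 to 4 with wild type KLF11. KDR, FLT1, MAOA and MAOB of this list read under 5 on at least 1 array, near the low end of the scale.

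Of the other KLF factors, which share the GC-rich sites, 16 of 16 were measured. With A347S 5 fell, with Δ486 4, with EAPP 0 and with wild type KLF11 2, and 0 rose, beside 5.35%, 3.23%, 0.00477% (either direction) and 1.78% of all clusters. Without the second A347S array 3 fell with A347S, and after repeated quantile normalization 1 fell with wild type KLF11. KLF10, the TGF-beta-inducible paralog closest to KLF11, read 7.63 and 7.63 under A347S, 7.70 and 7.65 under Δ486, 8.18 and 7.96 under EAPP and 7.87 and 7.87 under wild type KLF11, against 8.48 and 8.52 under empty vector. The changes of KLF10 were -0.87 for A347S, -0.83 for Δ486 and -0.63 for wild type KLF11, all called, and -0.43 for EAPP. KLF6, a growth regulator, was called for A347S at -0.87 and for Δ486 at -0.66. For wild type KLF11 it stood at -0.54, which passed the p threshold and not the fold threshold. KLF12, a repressor, was called for A347S at -0.72, for Δ486 at -0.70 and for wild type KLF11 at -0.72. KLF16 fell by 0.65 with A347S alone by this rule, and stood at -0.43 with Δ486, -0.24 with EAPP and -0.40 with wild type KLF11.

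**Figure D4:**
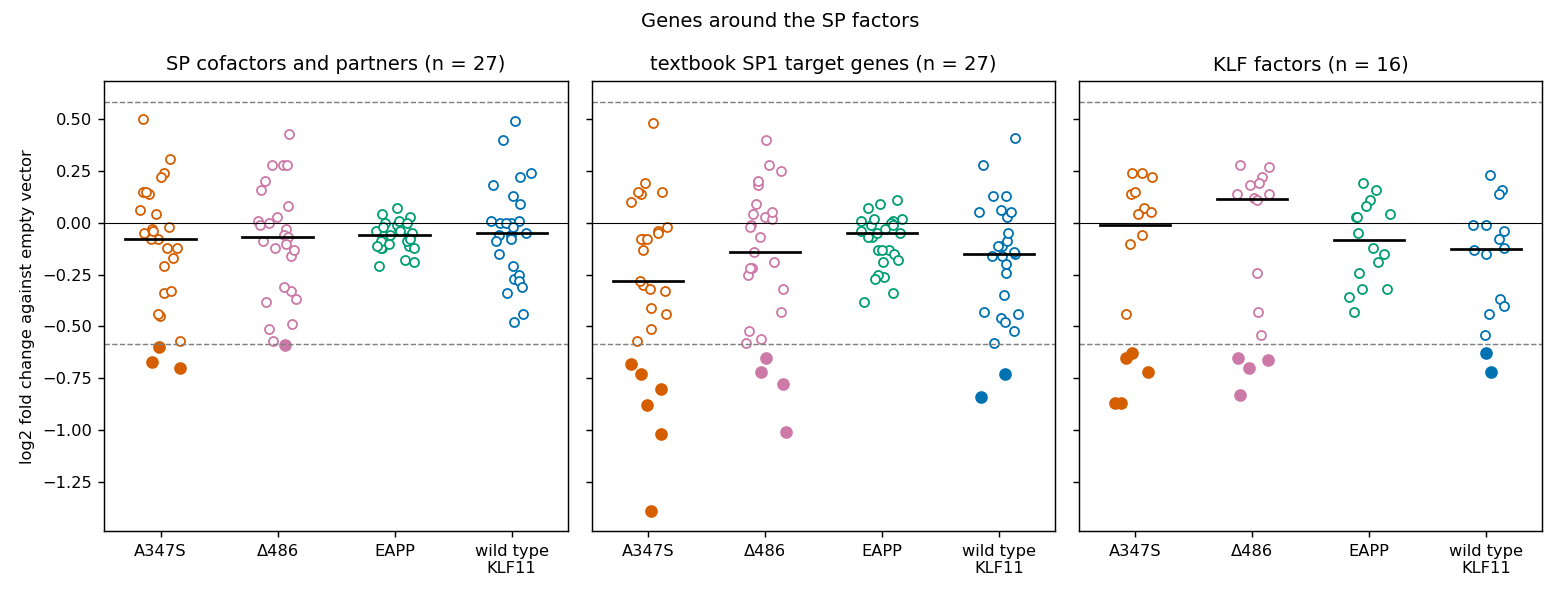
Log2 fold change against empty vector of the measured genes in 3 lists around the SP factors, for A347S, Δ486, EAPP and wild type KLF11. Each point is a gene, filled points pass both thresholds, black lines are list medians and dashed lines mark 1.5-fold. All filled points lie below 0, and 0 points are filled with EAPP.

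Epithelial and other cell type markers were set beside these changes. KRT19, a keratin of ductal epithelium, was the 1 of 7 epithelial markers that fell by both thresholds, with A347S, Δ486 and wild type KLF11. Of all clusters 5.35%, 3.23% and 1.78% fell with these constructs. By the adjusted p alone 4 of 7 were lower with A347S (KRT8 at -0.43, SOX9 at -0.26 and KRT18 at -0.25 besides KRT19), 3 with Δ486, 0 with EAPP and 2 with wild type KLF11. The change of KRT19 was -1.51 for A347S, -1.06 for Δ486, -0.44 for EAPP and -0.99 for wild type KLF11, and that for EAPP did not pass. The mean of the 7 epithelial markers was 8.89 to 8.95 with A347S, 8.99 to 9.03 with Δ486, 9.18 to 9.23 with EAPP and 8.99 to 9.08 with wild type KLF11, against 9.26 to 9.31 with empty vector. CD14 was the 1 of 4 leukocyte markers that rose, by 0.59 with A347S, where 3.63% of all clusters rose. PTPRC, the pan-leukocyte marker, read between 3.44 and 3.75 on all 10 arrays and CD3E between 4.80 and 5.09. CD14 read 5.62 to 6.43 and CD68 9.54 to 9.77, so the leukocyte markers were not all low. Of the 4 acinar, 3 endocrine and 5 fibroblast markers measured, 0 passed in any group by limma's adjusted p. The part of these markers in the SP values was not tested. In a bulk sample fewer cells with a gene and less RNA per cell cannot be told apart.

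Across the 10 arrays SP1, SP2, SP3 and SP4 varied together. Pearson's r was 0.91 between SP1 and SP3, 0.86 between SP1 and SP4, 0.84 between SP3 and SP4 and 0.70 to 0.74 for the pairs with SP2. SP5 and SP6 had r = 0.85, while the pairs of SP1, SP3 and SP4 with SP5, SP6 or SP8 lay between -0.50 and -0.03. The arrays come from 5 groups and share a normalization, so these values mix group differences with differences between replicate arrays and carry no test. SP5 and SP6 moved together between replicate arrays, as under EAPP, at 7.17 and 7.72 for SP5 and 5.45 and 5.88 for SP6. The same held under Δ486 and empty vector, while under A347S and wild type KLF11 the replicates of these genes moved in opposite directions.

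**Figure D5:**
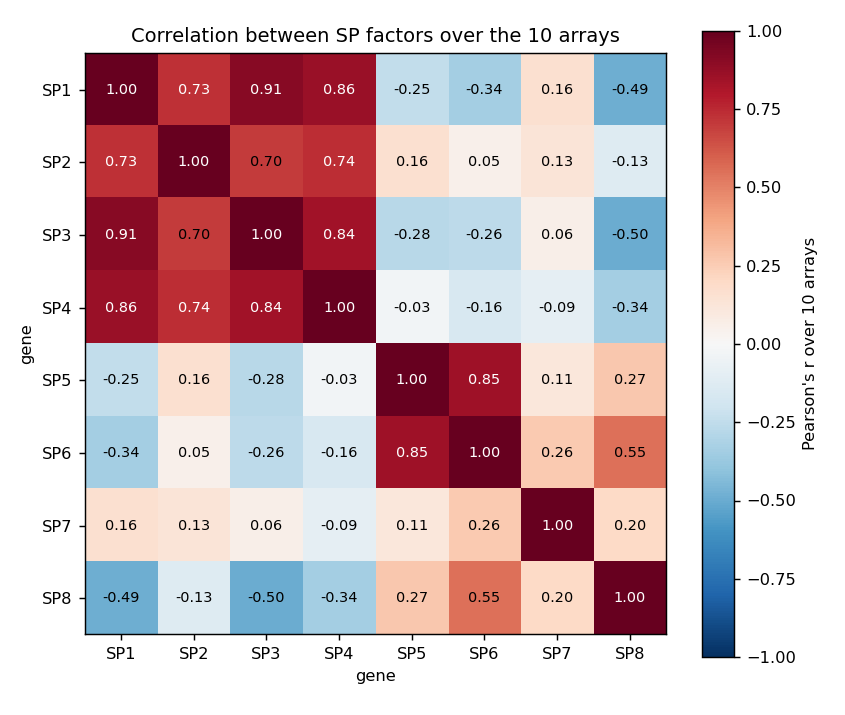
Pearson's r between the log2 values of the SP genes over the 10 arrays. Red is positive and blue negative. SP1 to SP4 form a block of r from 0.70 to 0.91, and SP5 and SP6 have 0.85.

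The genes whose pattern over the 10 arrays was most like that of SP1, among 18376 genes, were ZNF436, USP7 and SMARCD1, with r = 0.995, 0.992 and 0.992. SMARCD1, a subunit of the SWI/SNF remodelling complex, had changes of -0.82 with A347S, -0.71 with Δ486, -0.20 with EAPP and -0.55 with wild type KLF11. PASK, a kinase with a PAS domain, had the lowest r, -0.986. For SP4 the most alike were NINL, MTDH and AMER1, with r = 0.975, 0.970 and 0.967. AMER1, a regulator of Wnt signalling, had changes of -0.74 with A347S, -0.58 with Δ486, -0.09 with EAPP and -0.76 with wild type KLF11. GPR19, an orphan receptor, had the lowest r with SP4, -0.990, with changes of 1.10, 0.76, 0.32 and 1.20 in the same order.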

How the data were processed

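Per the labels and the methods, the authors transduced Panc1 cells, pooled RNA from separate cultures, hybridized it to Affymetrix Human Gene 1.0 ST arrays and applied Robust Multiarray Analysis, with Partek 6.6 named in the processing notes. The deposited values are log2 expression and were used as given. The build behind the array's annotation was not given in the labels, the methods or the file. Depth has no meaning for arrays, and 2 arrays per group limit the precision.

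All 10 arrays entered a linear model with a mean per group (limma 3.58.1, R 4.3.3, 5 residual and 4.54 prior degrees of freedom), over 20961 of 28869 clusters, the 7908 without a symbol being left out. The members, lists and rules were chosen with earlier results of these data known. Text names all members, KLF11, up to 4 called genes per list with the smallest adjusted p, and for the 2 members with the largest F the 3 most and 1 least alike genes. KRT19, CD14, CD68, CD3E, KRT8, KRT18, CDH1, PTPRC, SOX9, TBP, KDR, FLT1, MAOA and MAOB were named after their values were seen.

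Replicate numbers were checked for pairing: over 10 pairs of groups the deviations correlated at -0.35 to 0.15, so no block entered the fit. The code was tested on simulated data. Alternatives covered thresholds, tests, scaling, dim clusters, a replicate block and single arrays left out. Promoter sequences came from RefSeq. Figures used matplotlib 3.10.9 in Python 3.11.15. The study's chromatin immunoprecipitation and pathway analyses were not analysed here.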

Additional observations from a re-analysis of the deposited data

How the results depend on the processing

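Against empty vector, 2 members passed with A347S, 1 with Δ486, 0 with EAPP and 2 with wild type KLF11, and 1 passed with EAPP against A347S and 1 with EAPP against Δ486. With an absolute log2 fold change of 1.5, the size given in the study's methods, A347S, Δ486 and wild type KLF11 each gave 0 against empty vector, EAPP gave 0 against A347S and Δ486, and so did a test of 2 arrays against 2 without moderation or shared spread. Without moderation but with all groups, wild type KLF11 gave 1 and EAPP against Δ486 gave 0, and that last comparison also gave 0 after repeated quantile normalization and after cyclic loess. At the adjusted p without a fold threshold Δ486 gave 4, where 13.3% of all clusters were lower and 9.07% higher than with empty vector. By the same rule EAPP gave 1 against wild type KLF11, 3 against A347S and 2 against Δ486, all higher. Of all clusters 4.89%, 13.6% and 8.29% were higher in these comparisons. At an unadjusted p without a fold threshold A347S gave 4 and Δ486 gave 4 against empty vector (beside 37.6% and 34.3% of all clusters). Against wild type KLF11 A347S gave 1, Δ486 gave 2 and EAPP gave 2 (beside 14.4%, 10.5% and 25.2%). EAPP gave 4 against A347S and 3 against Δ486 (beside 33.4% and 28%), and A347S gave 1 against Δ486 (beside 7.43%). With single arrays left out, wild type KLF11 gave 1 to 2 members against empty vector and EAPP gave 0 to 1 against wild type KLF11, against A347S and against Δ486. The fit with the replicate block gave 2, 1, 0 and 2 members with A347S, Δ486, EAPP and wild type KLF11 against empty vector, and 0 for each mutant against wild type KLF11, so the replicate block changed no call count. Of 1980 single values over 25 settings, 1879 kept their direction and their side of the threshold. A further 49 changed sign, all of values that were not called and at most 0.24 in size. In 24 values a called result lost its call, and in 28 an uncalled result gained one. Most of the 80 results behind these values were not called in the main fit. Each member had 1 cluster, so the next brightest cluster could not be tried, and SP6 and SP8 drop out where clusters with a mean under 6 are left out. With 2 arrays per group, leaving out an array leaves a lone one, whose spread was taken from the other groups.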

Other observations

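Wnt target genes were set beside SP5 and bone genes beside SP7. Of 8 measured Wnt targets of 9 listed, 1 fell and 1 rose with A347S, where 5.35% of all clusters fell and 3.63% rose. DKK1, a secreted Wnt inhibitor, fell by 0.63 with A347S, and LEF1, a partner of beta-catenin on DNA, rose by 0.63. DKK1 read 10.22 and 10.16 with A347S, against 10.75 and 10.88 with empty vector, and LEF1 read 4.95 and 4.79 with A347S, against 4.25 and 4.23 with empty vector. These values of LEF1 lie near the low end of the scale. The number called with A347S was 1 after cyclic loess, without clusters of a mean under 6, without the first A347S array or without the second of the empty vector arrays. With Δ486, EAPP and wild type KLF11, 0 of these 8 genes passed both thresholds. By the adjusted p alone, limma gave 2 with Δ486 (1 lower and 1 higher), 0 with EAPP and 1, lower, with wild type KLF11. Of all clusters, 13.3% were lower and 9.07% higher with Δ486 by p alone, and 9.75% were lower with wild type KLF11. Of 8 measured bone genes of 9 listed, 0 passed both thresholds with any construct. By the adjusted p alone 1 was lower with A347S, where 16.9% of all clusters were lower, and 1 higher with Δ486, where 9.07% were higher.

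The members SP1 to SP8 lie in pairs on 4 chromosomes, and their changes are set side by side here. On chromosome 12, SP1 fell with A347S, Δ486 and wild type KLF11 while SP7 stood at -0.12, 0.07 and 0.09. On chromosome 7, SP4 stood at -0.69, -0.49 and -0.75 while SP8 stood at 0.02, 0.29 and 0.09, and on chromosome 2 SP3 stood at -0.40, -0.34 and -0.31 while SP5 stood at 0.27, 0.35 and -0.04. On chromosome 17, SP2 and SP6 passed the test with none of these constructs. The differences between members on the same chromosome were not tested, and SP6, SP7 and SP8 read low, where a fall could go unseen.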
